A study of Mus musculus with 14 samples.

Results

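Wnt ligands, receptors and targets in mouse lung are described here through 10 genes: the ligands Wnt2, Wnt5a, Wnt4, Wnt7a and Wnt11, the receptors Fzd1 and Fzd4, the secreted inhibitor Sfrp1, and the target genes Axin2 and Lef1. They are 10 of the 18194 genes with a probe set of their own on the array. The platform annotation gives these symbols alone to 25 probe sets. For each gene 1 probe set was chosen by its mean level, the highest over all 14 arrays, a value that compares no groups, and the others served as a check. The genes themselves were proposed with results of these arrays in view, so their p-values do not come from an independent choice.

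Whole lungs were compared in 4 groups. VILI PBEF+/- (n = 3) was ventilated for 4 hours at a tidal volume of 40 ml/kg, in animals of 8-12 weeks. VALI (n = 4) had the same ventilation at 18-22 weeks, PBEF+/- (n = 3) was not ventilated at 18-22 weeks, and Control (n = 4) was given PBS at 18-22 weeks. The series text gives the tidal volume as 30 ml/kg and adds recombinant human PBEF, the secreted product of Nampt, placed in the trachea. The labels do not say whether PBEF+/- is a genotype or the protein given, name no strain or sex, and describe every lung as that of a control animal. Age and ventilation cannot be told apart between VILI PBEF+/- and PBEF+/-, nor age and the PBEF label between VILI PBEF+/- and VALI.

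Wnt proteins are secreted lipid-modified ligands that bind Frizzled receptors. In the canonical branch, binding with an LRP co-receptor stops the destruction of beta-catenin, which then acts with TCF and LEF factors on target genes. Axin2 encodes a scaffold of the destruction complex and is itself a target, so it is used as a readout of the branch, and Lef1 encodes one of the DNA-binding partners. Wnt2 is made by lung mesenchyme and is needed for normal lung development in mice. Wnt5a and Wnt11 are best known for beta-catenin-independent signalling in cell movement and polarity, Wnt7a is an epithelial ligand in several organs, and Wnt4 acts in kidney and reproductive tract development. Fzd4 is a receptor of endothelial cells that also binds norrin, and Sfrp1 binds Wnt ligands outside the cell.

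Promoter sequences of RefSeq (GRCm38.p6) covered 8 of the 10 members in 12 windows, and Wnt5a and Sfrp1 were not among them. The 250 bases before each start were searched on both strands for CTTTG, the core of the TCF/LEF site, for CTTTGAT, a longer form that contains it, and for TGANTCA, the AP-1 motif. CTTTG was in 6 of the 12 windows, against 48.6% of 32851 promoters. All 4 windows of Lef1 are among these 6, with that of Fzd1 and the first of Wnt11. A share of windows is therefore not a share of genes. CTTTGAT was in 1 window, the first of Wnt11, against 3.21% of promoters, and TGANTCA was in 0, against 6.75%. The windows below are those of Wnt2, whose differences were the largest, of the target genes Axin2 and Lef1, and of Wnt11, which held the longer motif. They are written 5′ to 3′ on the gene's strand, with CTTTG or its reverse complement CAAAG in capitals.
Wnt2 (chr6:18030446-18030695, minus strand): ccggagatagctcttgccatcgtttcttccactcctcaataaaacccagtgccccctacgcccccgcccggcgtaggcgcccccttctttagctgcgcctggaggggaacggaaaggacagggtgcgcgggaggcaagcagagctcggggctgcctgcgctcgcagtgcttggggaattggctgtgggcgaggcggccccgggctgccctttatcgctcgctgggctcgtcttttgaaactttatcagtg
Axin2 (chr11:108920099-108920348, plus strand): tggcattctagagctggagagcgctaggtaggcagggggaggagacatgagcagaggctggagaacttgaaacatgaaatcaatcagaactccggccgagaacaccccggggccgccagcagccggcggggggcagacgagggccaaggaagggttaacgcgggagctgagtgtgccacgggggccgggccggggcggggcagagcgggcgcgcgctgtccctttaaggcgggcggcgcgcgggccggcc
Lef1, second of 4 windows (chr3:131110073-131110322, plus strand): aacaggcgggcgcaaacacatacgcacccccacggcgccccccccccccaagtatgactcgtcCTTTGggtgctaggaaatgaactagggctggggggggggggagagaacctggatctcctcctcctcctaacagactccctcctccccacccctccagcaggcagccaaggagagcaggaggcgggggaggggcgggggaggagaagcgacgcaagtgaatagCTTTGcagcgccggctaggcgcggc
Wnt11, first of 2 windows (chr7:98834862-98835111, plus strand): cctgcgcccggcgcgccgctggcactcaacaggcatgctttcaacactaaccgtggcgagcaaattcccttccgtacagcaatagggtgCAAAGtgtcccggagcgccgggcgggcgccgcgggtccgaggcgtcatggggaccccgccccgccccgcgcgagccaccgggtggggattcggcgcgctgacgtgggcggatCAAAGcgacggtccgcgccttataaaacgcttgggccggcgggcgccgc
The windows of Wnt2 and Axin2 held none of these motifs. The second window of Lef1, which overlaps the first, held CTTTG 187 and 25 bases before the start. That of Wnt11 held CAAAG 161 and 49 bases before it, the nearer one inside the longer motif. A match describes the letters of a window and not a bound site.

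Values are log2 probe set levels, so a difference of 1 is a factor of 2. Array medians lay between 4.60 and 4.75. Il6, the cytokine interleukin-6, read 10.32 to 12.75 in VILI PBEF+/- and 2.10, 2.56 and 10.87 in PBEF+/- arrays 1 to 3. It read 9.60, 9.84, 9.85 and 2.78 in VALI arrays 1 to 4, and 2.09 to 2.45 in Control. The arrays labelled VALI 4 and PBEF+/- 3 therefore go against the rest of their groups, and each comparison is given with all 14 arrays and with these 2 left out. They were singled out by their own values, so p-values without them are conditional on that choice. Eif2s3y, a Y-linked gene, was high in Control 1 and 4, VALI 4 and PBEF+/- 2, and Xist in the other 10 arrays, so sex differs between and within groups. The labels do not state that each array is another animal, and p-values then measure the spread between these samples. Calls are made at 0.05 on limma's adjusted p over the 11360 genes tested, and errors of differences are standard errors.

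Wnt2 was the member with the largest differences, and it was low in the arrays with high Il6. Its log2 level was 4.31, 4.72 and 5.62 in VILI PBEF+/-, against 8.33, 8.16 and 6.03 in PBEF+/-. It was 5.69, 5.25, 6.16 and 8.24 in VALI, against 8.35, 7.31, 7.08 and 8.72 in Control. VALI 4 and PBEF+/- 3 were the arrays nearest to the opposite group, while VILI PBEF+/- lay wholly below PBEF+/-. VILI PBEF+/- 1 was the only array with Wnt2 below the array median. The 7 arrays lowest in Wnt2 were the 7 highest in Il6.

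**Figure D1:**
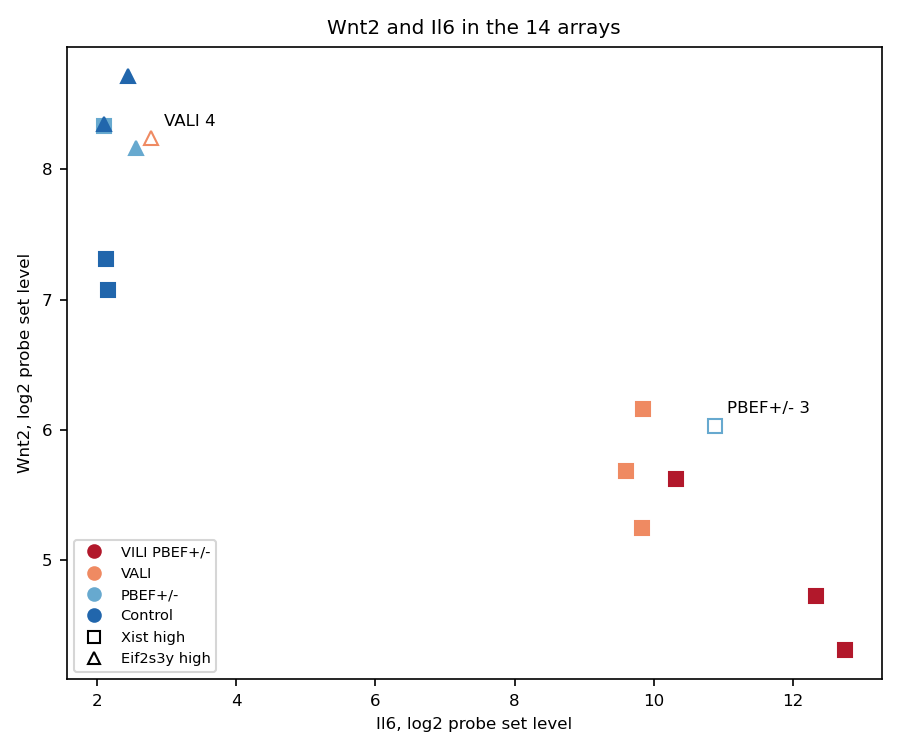
Log2 level of Wnt2 (vertical axis) against that of Il6 (horizontal axis), 1 point per array, coloured by group, with squares for arrays high in Xist and triangles for arrays high in Eif2s3y; open symbols are VALI 4 and PBEF+/- 3. The 7 arrays with Il6 at 9.60 or above have Wnt2 at 6.16 or below, and the other 7 have Wnt2 at 7.08 or above.

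From low to high, Wnt2 averaged 4.88 ± 0.67 in VILI PBEF+/- (n = 3), 6.33 ± 1.32 in VALI (n = 4), 7.51 ± 1.28 in PBEF+/- (n = 3) and 7.86 ± 0.79 in Control (n = 4), with SD as the error. Each group overlapped its neighbour in this order. With all arrays, Wnt2 differed by -2.62 ± 0.77 between VILI PBEF+/- and PBEF+/- (adjusted p = 0.146), the 4th lowest of the 11360 differences. These groups did not overlap, as was so, in the lower direction, for 10.8% of genes tested. VALI differed from Control by -1.53 ± 0.67 (adjusted p = 0.255), with overlap in all 10 members, beside 4.7% of genes higher and 5.98% lower without overlap. In these comparisons 0 of the 10 members and 0% of all genes were called in either direction, while 2355 and 2075 genes had an unadjusted p under 0.05.

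With VALI 4 and PBEF+/- 3 left out, Wnt2 fell in both ventilated groups. The difference was -3.36 ± 0.50 between VILI PBEF+/- and PBEF+/- (adjusted p = 0.00108), a level 10.3-fold lower. It was -2.16 ± 0.42 between VALI and Control (adjusted p = 0.00635), 4.48-fold lower. These were the 7th and 24th lowest differences of all genes, and 15.3% and 10.5% of genes were called lower there. The call held when remaining arrays were left out in turn, in 10 of 10 usable fits of the first comparison (-3.73 to -3.07). It held in 12 of 12 of the second (-2.43 to -1.88). Fits of the first without PBEF+/- 1 or PBEF+/- 2 were not used, since PBEF+/- then held 1 array, so dependence on either is not covered. The 10.3-fold size is not exact, since VILI PBEF+/- 1 and 2 read 4.31 and 4.72 beside array medians of 4.67 and 4.60. Wnt2 has only 1 probe set, so no other serves as a check. In whole lung, fewer cells that make Wnt2 and less Wnt2 RNA per cell cannot be told apart.

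In Control, Wnt2 differed with array sex, at 8.35 and 8.72 in the arrays high in Eif2s3y and 7.31 and 7.08 in those high in Xist. In PBEF+/- it did not follow that order, since PBEF+/- 1, high in Xist, read 8.33 and PBEF+/- 2, high in Eif2s3y, read 8.16. All 3 VILI PBEF+/- arrays and VALI 1 to 3 were high in Xist. With both arrays left out and the sex pattern as a covariate, the difference of Wnt2 in VILI PBEF+/- against PBEF+/- was -2.94 (adjusted p = 0.00282), and that of Wnt2 in VALI against Control was -1.75 (adjusted p = 0.0208). Among arrays high in Xist alone, where PBEF+/- is 1 array assumed to vary like the others, they were -3.45 (adjusted p = 0.00423) and -1.49 (adjusted p = 0.0392). The single omission of PBEF+/- 3 gave an adjusted p of 0.0158 in the first comparison, and that of VALI 4 gave 0.0477 in the second.

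Wnt5a had lower means in both ventilated groups on both of its probe sets that were above the array median in all 14 arrays, with smaller differences than Wnt2. On the chosen probe set it read 6.97, 7.52 and 7.35 in VILI PBEF+/-, against 8.79, 7.50 and 7.26 in PBEF+/-. It read 7.81, 7.24, 7.22 and 8.55 in VALI, against 8.81, 8.34, 8.42 and 8.21 in Control. PBEF+/- 2 and 3 lay within the VILI PBEF+/- range, and VALI 4 lay within the Control range. With all arrays the difference was -0.57 ± 0.40 for VILI PBEF+/- against PBEF+/- (adjusted p = 0.398) and -0.74 ± 0.35 for VALI against Control (adjusted p = 0.277).

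With both arrays left out, Wnt5a fell in VALI against Control by 1.02 on the log2 scale (SE 0.29, adjusted p = 0.0312), 2.03-fold lower, with no overlap between the groups. In VILI PBEF+/- against PBEF+/- the difference was -0.86 ± 0.34 and was not called (adjusted p = 0.0830). The call of Wnt5a in VALI against Control was kept in 7 of 12 fits that left out 1 more array. It was lost without Control 1 (adjusted p = 0.0708), Control 2 (0.0557), Control 3 (0.0579), VALI 2 (0.114) or VALI 3 (0.0972). The probe set 1436791_at of Wnt5a was called in VILI PBEF+/- against PBEF+/- at -1.64 (adjusted p = 0.00305) and in VALI against Control at -1.09 (adjusted p = 0.0134), over the 19739 probe sets tested. Another, 1437673_at, was above the array median in only 6 arrays, Control 1 to 4, VALI 4 and PBEF+/- 1, and passed the filter through them, so its differences are not used. Among arrays high in Xist alone, where only PBEF+/- 1 remains of PBEF+/-, Wnt5a differed by -1.50 in VILI PBEF+/- against PBEF+/-.

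**Figure D2:**
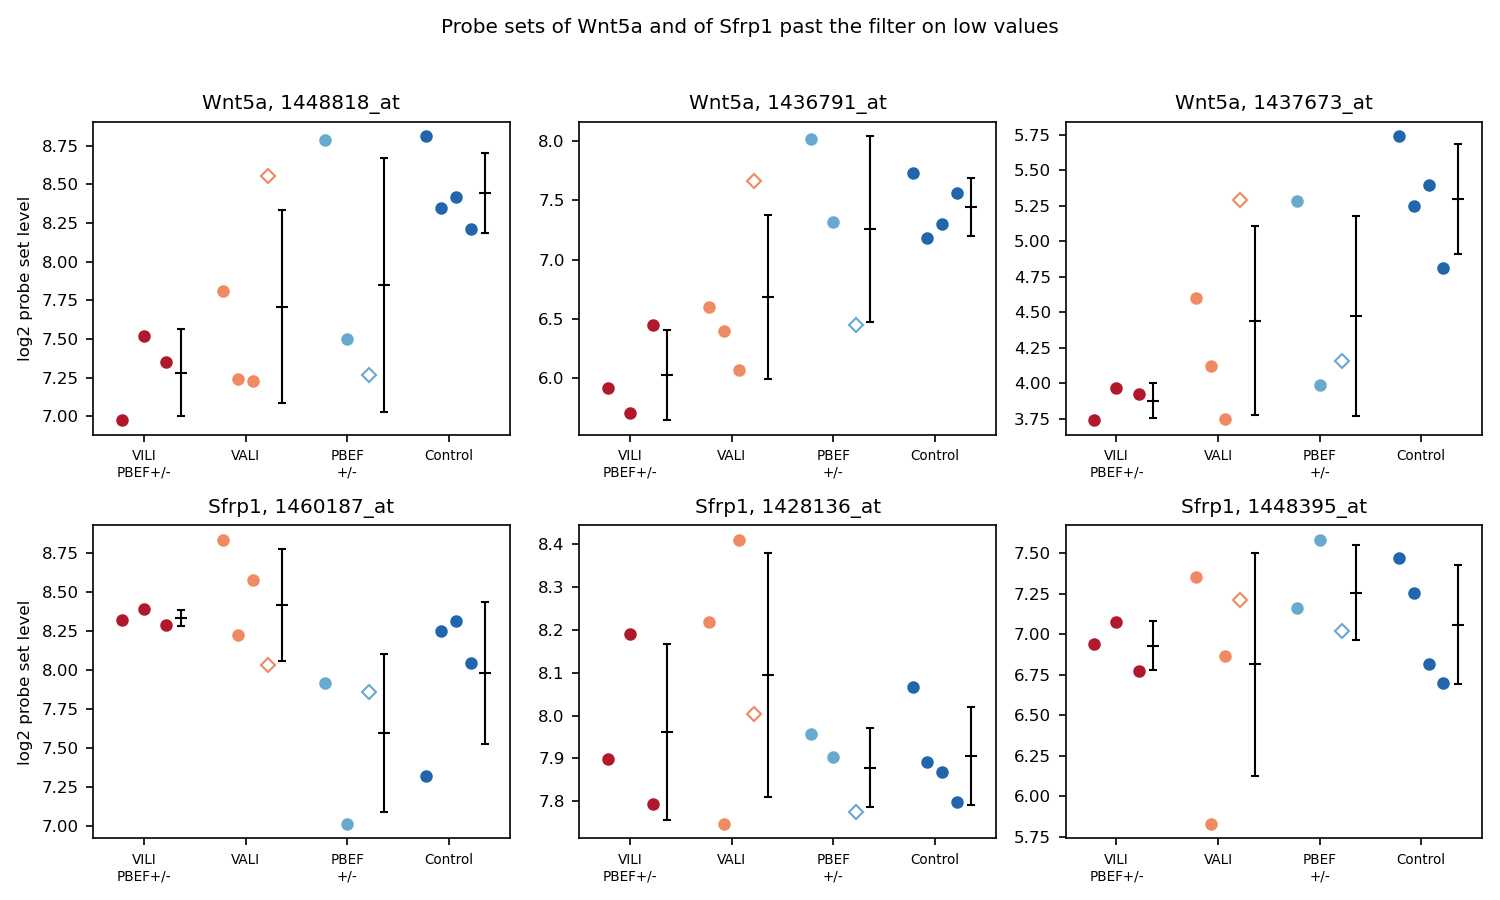
Log2 levels (vertical axes, each with its own range) of the 3 probe sets of Wnt5a (top) and of Sfrp1 (bottom) past the filter on low values, by group, 1 point per array, with the group mean and SD over all its arrays in black; open diamonds are VALI 4 and PBEF+/- 3. 1437673_at of Wnt5a is above the array median in 6 arrays, and the other 5 probe sets are so in all 14. Those of Sfrp1 differ in direction between VILI PBEF+/- and PBEF+/-.

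Wnt4, Wnt7a and Wnt11 were called in no comparison, with all arrays or with both left out. Wnt4 read 7.12, 7.12 and 7.43 in VILI PBEF+/-, against 8.16, 6.82 and 7.46 in PBEF+/-, and 8.11, 7.43, 7.55 and 8.68 in VALI, against 7.90, 7.15, 7.46 and 7.82 in Control. The highest Wnt4 level of the series was that of VALI 4. The mean log2 level of 4 skeletal muscle markers was 13.27 in VALI 1 and 14.03 in VALI 4, against 4.16 to 8.96 in the other 12 arrays, and 2 of these markers, Mylpf and Tnnc2, were above the array median in only 3 arrays. VALI 4 was also the highest of all arrays in Wnt11, and the part of the muscle markers in these levels was not tested. On its chosen probe set, the largest difference of Wnt4 was -0.72 ± 0.34 in VILI PBEF+/- against VALI (adjusted p = 0.477). It was -0.48 ± 0.32 with both arrays left out (adjusted p = 0.795). The other probe set of Wnt4, 1441687_at, was above the array median in all 14 arrays. It averaged 6.41 in VILI PBEF+/-, 6.58 in VALI, 6.18 in PBEF+/- and 6.26 in Control, so VILI PBEF+/- lay above PBEF+/- there.

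Wnt7a read 6.06, 6.31 and 5.82 in VILI PBEF+/-, against 6.92, 6.89 and 6.02 in PBEF+/-, and 6.03, 6.04, 6.01 and 7.03 in VALI, against 6.79, 5.88, 6.10 and 7.83 in Control. Both Control arrays high in Eif2s3y stood above both high in Xist. With both arrays left out, the difference was -0.84 ± 0.44 for VILI PBEF+/- against PBEF+/- (adjusted p = 0.176) and -0.63 ± 0.37 for VALI against Control (adjusted p = 0.264). The first pair of groups did not overlap then, as for Wnt2 and, in the lower direction, for 30.1% of genes. Wnt7a in VILI PBEF+/- against PBEF+/- was called when Control 4 was left out as well (adjusted p = 0.0341). Among arrays high in Xist alone, only PBEF+/- 1 remains of PBEF+/-. There Wnt7a differed by -0.85 and Wnt4 by -0.94 in VILI PBEF+/- against PBEF+/-. On the other probe set of Wnt4, 1441687_at, PBEF+/- 1 lay within the VILI PBEF+/- range of 6.28 to 6.66. In VALI against Control among these arrays, Wnt7a showed no drop: VALI (6.01 to 6.04) lay within the Control range (5.88 to 6.10).

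Wnt11 spanned 5.57 to 6.17 in VILI PBEF+/-, against 5.97 to 6.24 in PBEF+/-, and 5.95 to 6.82 in VALI, against 6.20 to 6.42 in Control. With both arrays left out VALI lay below Control with no overlap, as did Wnt2, Wnt5a and 23.1% of genes tested, at a difference of -0.23 ± 0.17 (adjusted p = 0.389). Its 95% interval ran from -0.61 to 0.15.

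**Figure D3:**
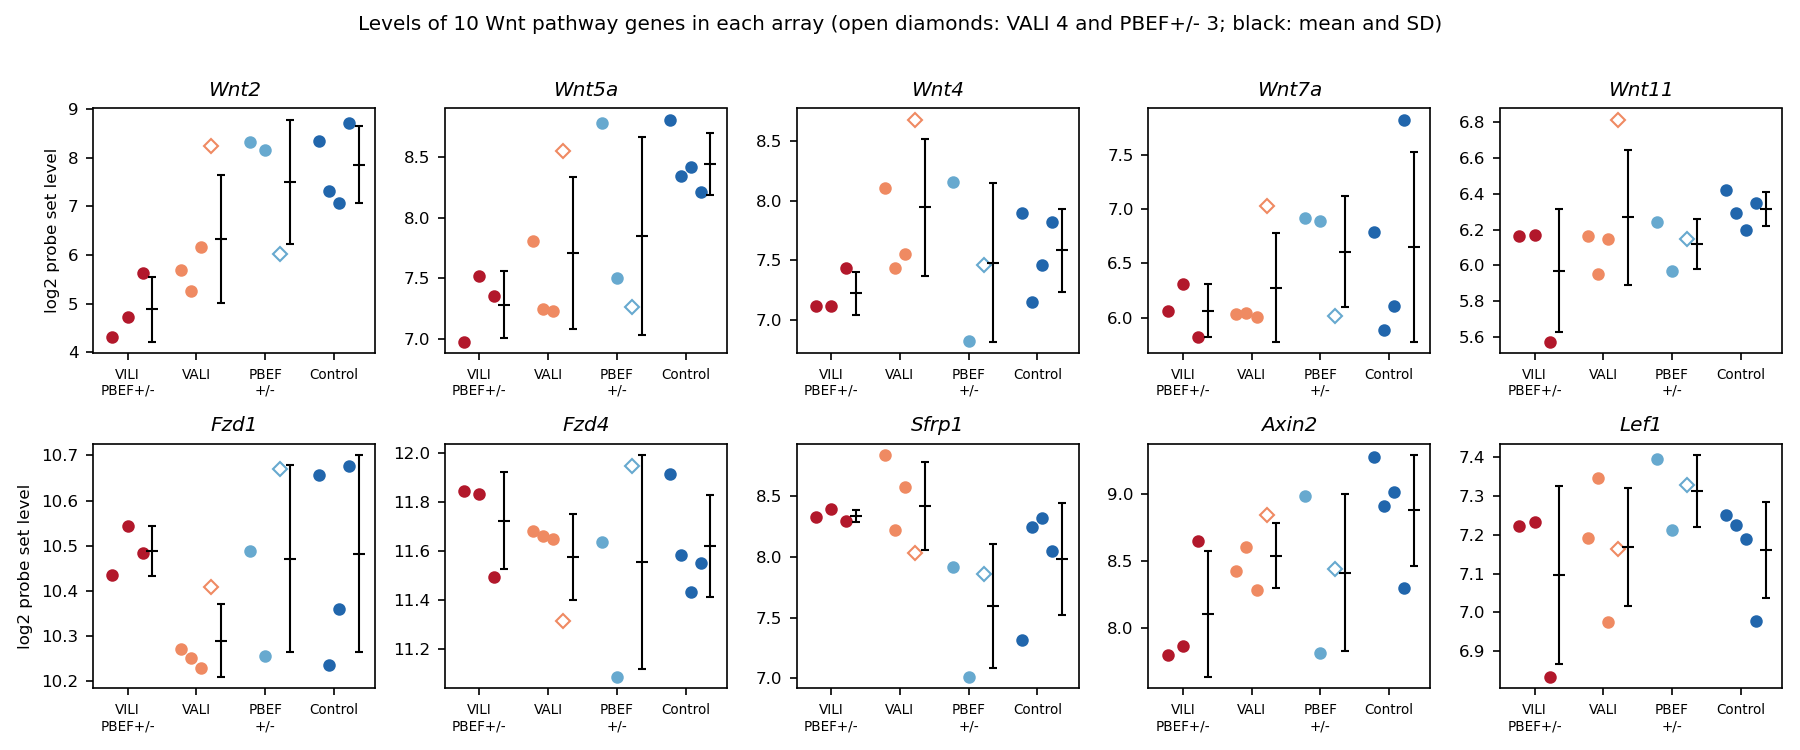
Log2 levels (vertical axes, each with its own range) of the 10 genes by group, 1 point per array, with the group mean and SD over all its arrays in black; open diamonds are VALI 4 and PBEF+/- 3. Wnt2 spans 4.31 to 8.72 over the 14 arrays, while Lef1 spans 6.83 to 7.40.

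The receptors Fzd1 and Fzd4 were measured above the array median in all 14 arrays and were called in no comparison. Fzd1 read 10.43, 10.54 and 10.48 in VILI PBEF+/-, against 10.49, 10.26 and 10.67 in PBEF+/-, and 10.27, 10.25, 10.23 and 10.41 in VALI, against 10.66, 10.24, 10.36 and 10.68 in Control. Its difference between VALI and Control was -0.19 ± 0.12 (adjusted p = 0.389), and -0.23 ± 0.12 with both arrays left out (adjusted p = 0.196). VILI PBEF+/- lay above VALI without overlap, as did 4.67% of genes, while 0 members and 10.2% of genes lay below, at a difference of 0.20 ± 0.13 (adjusted p = 0.566). With both arrays left out the difference was 0.24 ± 0.13 (adjusted p = 0.728), and 5.99% of genes were higher and 12% lower without overlap. On the other probe set of Fzd1, 1422985_at, the groups overlapped with all arrays (6.66 to 7.19 against 6.39 to 6.83). They did not overlap on it with both left out (6.66 to 7.19 against 6.39 to 6.63).

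Fzd4 read 11.84, 11.83 and 11.49 in VILI PBEF+/-, against 11.63, 11.08 and 11.95 in PBEF+/-, and 11.68, 11.66, 11.65 and 11.31 in VALI, against 11.91, 11.58, 11.43 and 11.55 in Control. The groups overlapped in each comparison. Without VALI 4 and PBEF+/- 3, the 95% interval of its difference was -0.28 to 0.37 for VALI against Control and -0.03 to 0.75 for VILI PBEF+/- against PBEF+/-. A second strong probe set of Fzd4, 1434756_at, differed by 0.10 and 0.37 in these comparisons, and a weak one, 1449416_at, above the array median in 10 arrays, by -0.65 and 0.14.

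Sfrp1 was higher in VILI PBEF+/- than in PBEF+/- on its chosen probe set, with levels of 8.32, 8.39 and 8.29 against 7.91, 7.01 and 7.86. These groups did not overlap, as for 8.47% of genes in this direction, and the difference was 0.74 ± 0.30 (adjusted p = 0.203). VALI read 8.84, 8.22, 8.58 and 8.03, against 7.32, 8.25, 8.32 and 8.05 in Control, and these overlapped. Once both arrays were dropped, the difference was 0.87 ± 0.32 for VILI PBEF+/- against PBEF+/- (adjusted p = 0.0641), where 20.9% of genes were higher without overlap, and 0.56 ± 0.27 for VALI against Control (adjusted p = 0.169). Sfrp1 in VILI PBEF+/- against PBEF+/- was called when Control 1 was left out as well (adjusted p = 0.0291). The probe sets did not share a direction in that comparison: 1428136_at differed by 0.03 and 1448395_at by -0.44. Nor did they in VALI against Control with both arrays left out. There 1428136_at averaged 8.12 in VALI and 7.91 in Control, and 1448395_at averaged 6.68 and 7.06.

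Axin2 read 7.80, 7.87 and 8.65 in VILI PBEF+/-, against 8.99, 7.82 and 8.44 in PBEF+/-, and 8.43, 8.60, 8.28 and 8.85 in VALI, against 9.28, 8.91, 9.02 and 8.30 in Control. The groups overlapped in every comparison, and Control 4 was the lowest of its group. The difference was -0.31 ± 0.32 for VILI PBEF+/- against PBEF+/- (adjusted p = 0.569) and -0.34 ± 0.28 for VALI against Control (adjusted p = 0.525). In the 12 remaining arrays, it was -0.30 ± 0.37 (95% interval -1.10 to 0.51) and -0.44 ± 0.31 (95% interval -1.11 to 0.24). A fit that weights arrays by their agreement with the rest called Axin2 in VILI PBEF+/- against PBEF+/- (-0.91, adjusted p = 0.0169). It also called Axin2 in VALI against Control (-0.42, adjusted p = 0.0465), and in VILI PBEF+/- against VALI, given with that comparison. The same fit called 2097 and 3060 of the 11360 genes lower in the first 2 of these comparisons, so such a call was common. It gave VILI PBEF+/- 1 a weight of 8.72 and PBEF+/- 2 a weight of 0.182.

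Lef1 lay between 6.83 and 7.40 in all arrays. It read 7.22, 7.23 and 6.83 in VILI PBEF+/-, against 7.40, 7.21 and 7.33 in PBEF+/-, and 7.19, 7.35, 6.97 and 7.16 in VALI, against 7.25, 7.22, 7.19 and 6.98 in Control. The range of VALI held that of Control. The difference was -0.22 ± 0.15 for VILI PBEF+/- against PBEF+/- (adjusted p = 0.403) and 0.01 ± 0.13 for VALI against Control (adjusted p = 0.979). Without VALI 4 and PBEF+/- 3, the second interval ran from -0.32 to 0.34.

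**Figure D4:**
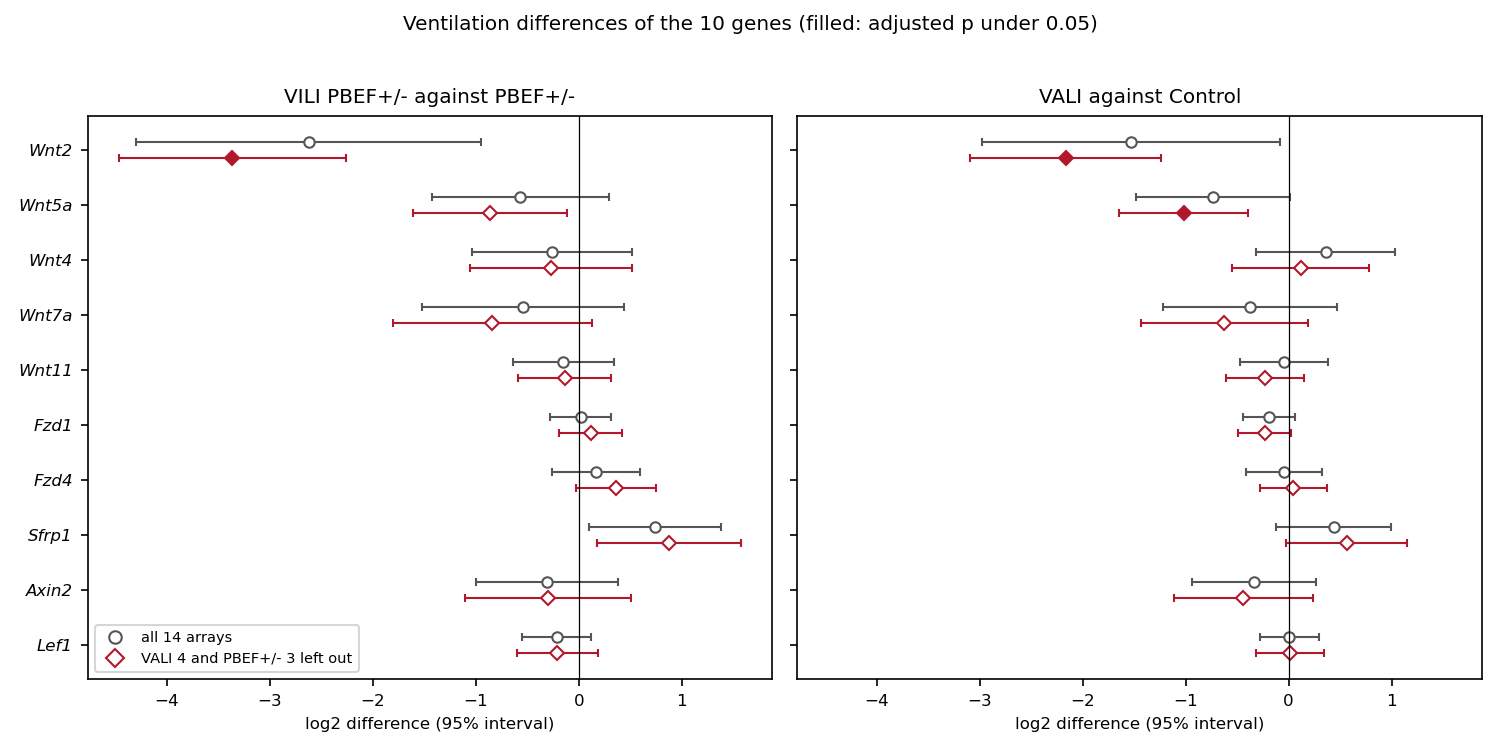
Log2 differences of the 10 genes (horizontal axes) for VILI PBEF+/- against PBEF+/- (left) and VALI against Control (right), with 95% intervals from the model; grey circles use all 14 arrays, red diamonds leave out VALI 4 and PBEF+/- 3, and filled symbols have an adjusted p under 0.05. The filled symbols are Wnt2 in both panels and Wnt5a on the right, all with the 2 arrays left out.

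Across the 10 members, 2 were called lower and 0 higher in VALI against Control with both arrays left out, beside 10.5% and 6.53% of all genes. In VILI PBEF+/- against PBEF+/-, 1 was called lower and 0 higher, beside 15.3% and 11.2%. The median difference of the members was -0.24 in VILI PBEF+/- against PBEF+/-, against -0.07 over all genes, and -0.23 in VALI against Control, against -0.08 over all genes. PBEF+/- against Control gave 0 called members in both settings, where 0 genes were called at all, and all 10 members overlapped. Beside them, 1.38% of genes were higher and 4.45% lower without overlap with all arrays, and 4.48% higher and 8.54% lower with both left out. Wnt2 there differed by -0.36 ± 0.72 with all arrays (adjusted p = 0.883) and by 0.38 ± 0.48 without the 2 (adjusted p = 0.762), so its sign rested on PBEF+/- 3. 

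VILI PBEF+/- against VALI asks what the PBEF label adds to ventilation, at another age. Wnt2 differed by -1.45 ± 0.72 with all arrays (adjusted p = 0.506) and by -0.81 ± 0.45 with both left out (adjusted p = 0.739, 95% interval -1.80 to 0.17). In the weighted fit, which called 1711 genes there, Wnt2 in VILI PBEF+/- against VALI was called at -1.24 (adjusted p = 0.0377) and Axin2 in VILI PBEF+/- against VALI at -0.66 (adjusted p = 0.0127). Of all genes, 13 were called higher (0.114%) and 0 lower with both arrays left out, none of them members. The interaction, the difference between both ventilation responses, called 0 genes in either setting. For Wnt2 it was -1.09 ± 1.02 with all arrays and -1.20 ± 0.66 with both left out (adjusted p = 0.535), so the responses of Wnt2 in these groups were not shown to differ.

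Beside the members, 90 other genes of the pathway were listed in 6 lists by role, and 54 of them passed the filter on low values. With all arrays, 0 of the 54 were called in any comparison. Once both arrays were dropped, 5 were called higher and 10 lower in VILI PBEF+/- against PBEF+/-, which is 9.26% and 18.5% of them. In VALI against Control, 3 were called higher and 11 lower, which is 5.56% and 20.4%. These shares stand beside 11.2% and 15.3% of all genes in the first comparison and 6.53% and 10.5% in the second. Of the 54, 47 were above the array median in all 14 arrays, and of these 8.51% were called higher and 17% lower in the first comparison and 4.26% and 21.3% in the second. The same shares of the 10625 genes above it in all arrays were 10.9% and 15.1%, and 6.16% and 10.4%. The median difference of the 54 was -0.21 and -0.30, against -0.07 and -0.08 over all genes.

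Among the other ligands, 3 of 14 were measured above the filter, and Wnt3a and Wnt9a fell in both comparisons with the 2 arrays left out. Wnt3a, a canonical ligand, read 4.62, 4.64 and 5.61 in VILI PBEF+/-, against 7.11, 5.62 and 4.58 in PBEF+/-. It read 4.59, 4.60, 4.81 and 7.07 in VALI, against 6.67, 6.76, 6.29 and 7.14 in Control. VALI 4 lay with Control and PBEF+/- 3 with VILI PBEF+/-, as they did for Wnt2. Wnt3a was above the array median in 10 arrays and below it in VILI PBEF+/- 1, VALI 1, VALI 2 and PBEF+/- 3, so its differences were taken against levels at the low-value limit. They are given with that limit and not as exact sizes. Wnt3a differed by -1.41 ± 0.42 (adjusted p = 0.0314) in VILI PBEF+/- against PBEF+/- and by -2.05 ± 0.35 (adjusted p = 0.00332) in VALI against Control. Wnt9a differed by -0.74 ± 0.19 (adjusted p = 0.0149) and -0.60 ± 0.16 (adjusted p = 0.0236).

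Of the other receptors and co-receptors, 14 of 17 were measured. Fzd2, another Frizzled receptor, fell in both comparisons, with differences of -1.30 ± 0.29 (adjusted p = 0.00838) in VILI PBEF+/- against PBEF+/- and -1.79 ± 0.24 (adjusted p = 0.000887) in VALI against Control. Ror1, a receptor tyrosine kinase that binds Wnt5a, rose in both. Ror1 read 9.26, 9.18 and 8.96 in VILI PBEF+/-, against 8.05, 7.72 and 9.59 in PBEF+/-, and 9.23, 9.33, 9.18 and 8.04 in VALI, against 7.79, 7.76, 8.09 and 8.58 in Control. Its differences without the 2 arrays were 1.25 ± 0.23 (adjusted p = 0.00295) and 1.19 ± 0.19 (adjusted p = 0.00203). Fzd6 fell (-0.80) and Fzd5 rose (0.58) in VILI PBEF+/- against PBEF+/-, while Fzd3 (-1.04) and Ryk (-0.52), a kinase-like Wnt co-receptor, fell in VALI against Control.

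Inhibitors, a list that holds Kremen1 and Kremen2 beside secreted ones, and agonists were mostly below the filter. Of these, 4 of 14 inhibitors and 3 of 7 genes of secretion and agonism were measured. The inhibitors Wif1 and Sfrp2, which bind Wnt ligands outside the cell, fell in VILI PBEF+/- against PBEF+/- with the 2 arrays left out. Wif1 read 6.53, 6.58 and 7.05 in VILI PBEF+/-, against 7.90, 8.00 and 6.57 in PBEF+/-, a difference of -1.23 ± 0.18 (adjusted p = 0.00107). Sfrp2 differed by -1.29 ± 0.41 (adjusted p = 0.0403), and neither was called in VALI against Control. Rspo1, an R-spondin that strengthens Wnt signalling at the receptor, fell in both comparisons, with differences of -0.61 ± 0.21 (adjusted p = 0.0498) and -0.77 ± 0.17 (adjusted p = 0.0128).

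Of the cytoplasmic and nuclear transducers, 19 of 23 were measured and few were called. Bcl9, a co-activator bound to beta-catenin, fell (-0.63) and the co-repressor Tle3 rose (0.51) in VILI PBEF+/- against PBEF+/-. Btrc, which marks beta-catenin for destruction, fell (-0.66) in VALI against Control. The median of this list was -0.11 and -0.04 in these comparisons, near that of all genes.

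The other target genes moved in both directions, with 11 of 19 measured. Myc, a transcription factor of growth with many inducers besides beta-catenin, rose most. Myc read 9.87, 10.04 and 9.68 in VILI PBEF+/-, against 5.23, 3.72 and 9.18 in PBEF+/-, and 8.50, 8.76, 9.15 and 6.13 in VALI, against 5.41, 5.86, 5.61 and 6.48 in Control. PBEF+/- 2 was below its array median. Without the 2 arrays Myc differed by 5.39 ± 0.41 (adjusted p = 1.44e-05) and 2.96 ± 0.34 (adjusted p = 0.000331). Cd44, the hyaluronan receptor, rose by 0.51 and 0.62. Tnfrsf19, a member of the TNF receptor family, fell by 1.49 and 0.98, and Rnf43, a ubiquitin ligase that removes Frizzled receptors, fell by 1.33 and 0.93. In VALI against Control, the Notch ligand Jag1 (-0.50) and the cyclin Ccnd1 (-0.36) also fell, and Ccnd1, and Rnf43 in that comparison, were named after their values were seen. Across all lists, 6 genes fell in both comparisons (Wnt3a, Wnt9a, Fzd2, Rspo1, Rnf43 and Tnfrsf19) and 3 rose in both (Ror1, Myc and Cd44). These are 11.1% and 5.56% of the 54 measured genes, beside 6.85% and 4.69% of all genes tested that fell or rose in both.

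**Figure D5:**
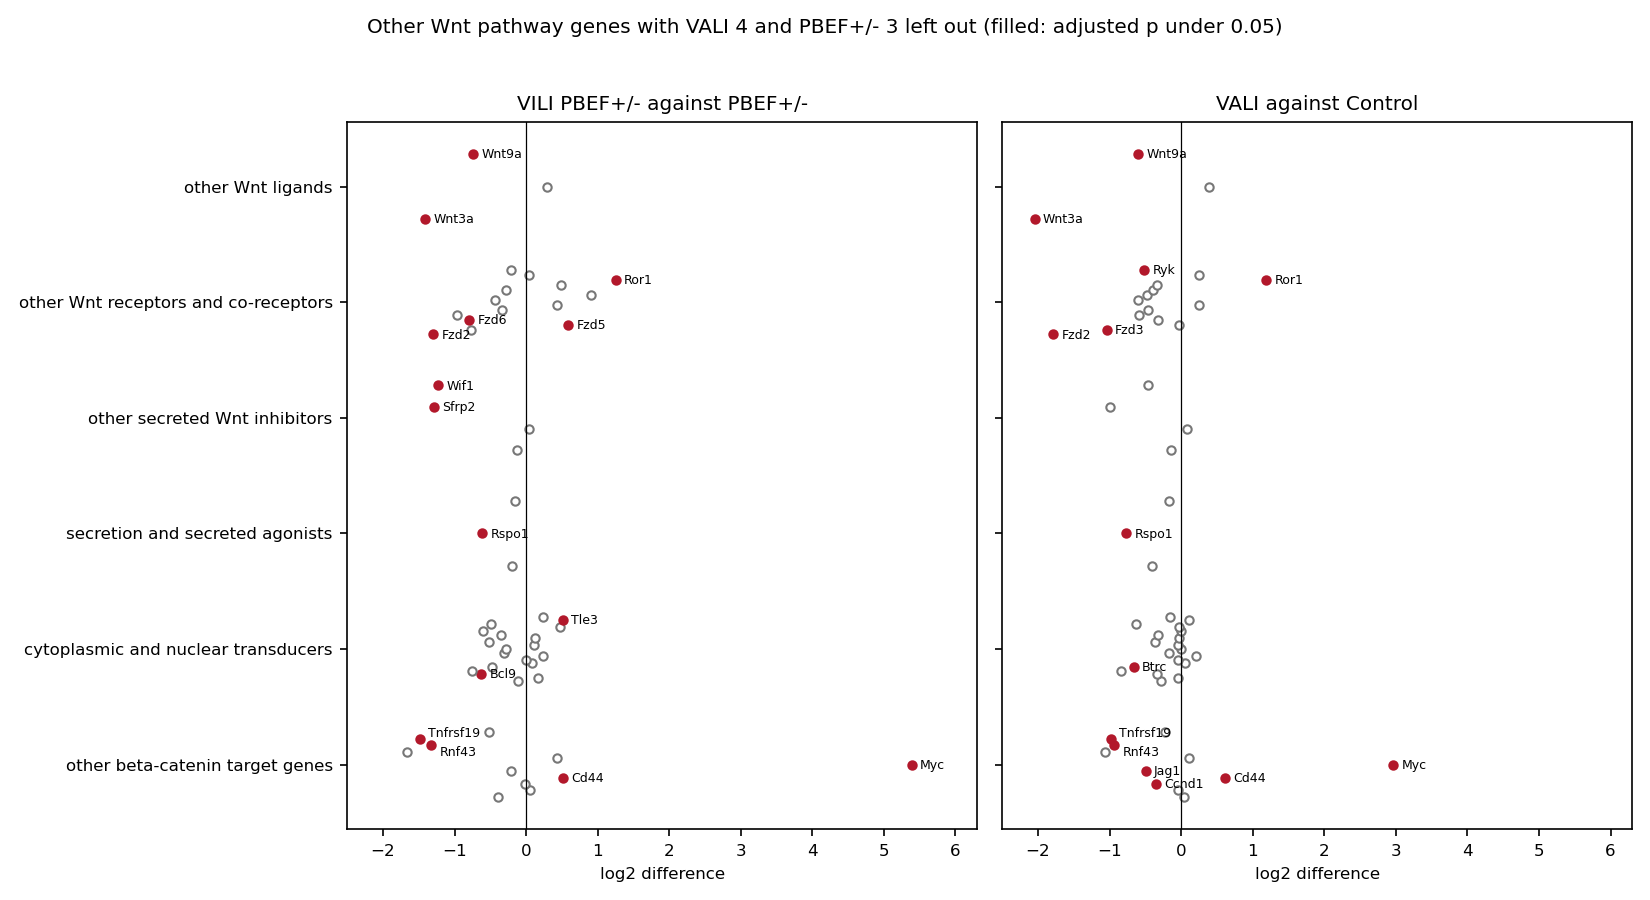
Log2 differences (horizontal axes) of the measured genes of 6 lists of other Wnt pathway genes, 1 point per gene and list, for VILI PBEF+/- against PBEF+/- (left) and VALI against Control (right) with VALI 4 and PBEF+/- 3 left out; filled points have an adjusted p under 0.05 and are named. Called genes lie mostly left of 0, and Myc lies farthest right, at 5.39 and 2.96.

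Markers of the lung's cells were measured in the same arrays. In the 12 remaining arrays, 5 of the 5 neutrophil markers above the array median in all 14 arrays were called higher in both ventilation comparisons, and 3 of 3 such B cell markers were called lower. Mmp8, Clec4e and Cr2, which were above it in 7, 8 and 6 arrays, are not counted. Of 10 fibroblast markers, 2 were called lower in each, and so were 2 of 8 endothelial markers. Of 7 club and ciliated markers, all 7 above the median in 14 arrays, 6 were called lower in each. Of 7 alveolar type I markers, 2 were called lower in VILI PBEF+/- against PBEF+/- and 4 in VALI against Control. Alveolar type II and smooth muscle markers, 6 each, had 0 called. Of all genes, 15.3% were called lower and 11.2% higher in VILI PBEF+/- against PBEF+/-, and 10.5% and 6.53% in VALI against Control. Mean log2 levels are given over all 14 arrays. That of the fibroblast markers, of which all 10 were above the array median in 14 arrays, was 12.65 to 12.87 in VILI PBEF+/-, against 12.57 to 13.10 in PBEF+/-. It was 12.73 to 12.90 in VALI, against 12.99 to 13.10 in Control. That of the 7 neutrophil markers tested was 10.6 to 10.8 in VILI PBEF+/-, against 6.24 to 10.5 in PBEF+/-. It was 6.66 to 10.8 in VALI, against 6.06 to 7.20 in Control. PBEF+/- 3 held the 10.5 and VALI 4 the 6.66. Without these 2 arrays the neutrophil mean was 6.24 and 7.89 in PBEF+/- and 10.1 to 10.8 in VALI. The part of these shifts in the levels of Wnt2, Wnt5a and the other Wnt genes was not tested. Alveolar type II markers averaged 13.4 to 14.1 over the arrays of this tissue labelled lung, and 6 heart markers averaged 11.2 to 12.5. Of 5 thymus markers, Rag1, Rag2, Dntt and Ptcra were above the median in 0 arrays, and Cd8b1 was above it in 8.

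The genes most like each member were taken by Pearson correlation of log2 levels over the 14 arrays, which fall into 2 clusters by Il6 and share groups, so the values describe likeness only. Wnt2 was followed most closely by Pebp1 (0.983), Lclat1 (0.981) and Snap47 (0.981). Wnt5a was followed by Palm (0.961), Evc (0.956) and Anxa6 (0.941), and Axin2 by Fhod1 (0.925), Zfp579 (0.923) and Rere (0.920). The closest genes were Coq10a (0.940) for Wnt4, Mfsd4a (0.941) for Wnt7a, Bdh1 (0.913) for Wnt11 and Ahcy (0.910) for Sfrp1. They were Eif3a (0.906) for Fzd4, Itpkb (0.856) for Fzd1 and Usp6nl (0.780) for Lef1.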

How the data were processed

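Total RNA of whole lung was extracted with Trizol and labelled as cRNA for Affymetrix mouse arrays, per the labels' protocols. The deposited table holds log2 levels of 45101 probe sets on 14 arrays. MAS5 and GCRMA are named per the submitters' processing notes, without version or role, and a log2 scale was taken from the range of values, 0.446 to 16.1. No further scaling was applied. The number of arrays limits the precision.

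The platform annotation gave 34958 probe sets 1 gene symbol, 932 several and 9211 none, and only the first were used. Each gene was taken at its probe set of highest mean, and it was tested when it exceeded the array median in at least 3 arrays (11360 of 18194). All 10 members and 18 of their 25 probe sets passed. A linear model of the 4 groups was fitted with limma 3.58.1 under R 4.3.3 (lmFit, then eBayes with a trend). P-values were adjusted by Benjamini-Hochberg over all genes tested, and the model was tested on simulated data. Sex was read from Xist and Eif2s3y, since Ddx3y has no probe set of its own.

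Named genes are the members, up to 4 genes of each list with the smallest p in a comparison, and the 3 genes most like each member. Members and lists were chosen with earlier results of these data known. Figures were drawn with matplotlib 3.10.9.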

Additional observations from a re-analysis of the deposited data

Results flagged for a closer look

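Of 20 groups of 4 arrays, a group being the level of 1 member in VALI or in Control, 2 held an array far from the rest by Dixon's ratio of the gap to the range. Chance alone marks about 1 in 20 such groups. Wnt7a in VALI had a ratio of 0.966, because VALI 4 read 7.03 while the nearest of the other 3 arrays read 6.04. Fzd4 in VALI had a ratio of 0.910, because VALI 4 read 11.31 while the nearest of the others read 11.65. VALI 4 is also the array of VALI with low Il6 and high Eif2s3y. Groups of 3 arrays were not examined in this way.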

How the results depend on the processing

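As labelled, 0 genes were called in each of the 5 comparisons by limma. The count stayed at 0 in all 5 with no filter, with a filter in at least 7 arrays, without the variance trend, with quantile normalization, with the sex pattern as a covariate and with the replicate number as a block. Fits of only the groups compared called 27 genes in VALI against Control and 1 in VILI PBEF+/- against VALI. Array weights called 3363 in VILI PBEF+/- against PBEF+/-, 4689 in VALI against Control, 1711 in VILI PBEF+/- against VALI and 20 in the interaction. The alternatives that left out VALI 4 and PBEF+/- 3 were chosen after seeing the data. With both left out, the counts in the same order were 3003, 1933, 13 and 0. Adding the sex covariate gave 2136, 1588 and 13 in the first 3, and keeping only arrays high in Xist gave 2816, 1995, 36 and 10, with 41 in PBEF+/- against Control. Fits that left out 1 array, with or without these 2, gave 0 to 3158 in VILI PBEF+/- against PBEF+/-, 0 to 2524 in VALI against Control, 0 to 107 in VILI PBEF+/- against VALI, 0 to 41 in the interaction and 0 to 2 in PBEF+/- against Control. Leaving out PBEF+/- 3 alone gave 2157 in the first and 288 in the second of these, and VALI 4 alone gave 680 in the second, while any other array alone gave at most 12. With both left out, the further loss of VILI PBEF+/- 1 or 2 lowered the first count to 1820 or 1908, and that of VALI 1 or 2 lowered the second to 985 or 1039. That of VILI PBEF+/- 3 gave 107 in VILI PBEF+/- against VALI and 41 in the interaction. The cause of these shifts was not tested. Deviations from group means had a median r of -0.0439 over 19 pairs of arrays with the same replicate number (-0.352 to 0.316). Over 54 other pairs it was -0.0214 (-0.693 to 0.493), so pairing by number was not shown. The group means include VALI 4 and PBEF+/- 3, so these values cannot settle whether the numbers pair arrays. Of 1830 member values under an alternative, 165 had the sign opposite to the value with all arrays, of which 0 were called. Of all of them, 53 were called, 52 lower and 1 higher.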
